A study of Drosophila melanogaster with 2 samples.

Results

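The 10 genes described here form the core of the Jun N-terminal kinase (JNK) pathway of Drosophila melanogaster. They are egr, grnd, wgn, msn, Ask1, hep, bsk, kay, Jra and puc, taken by name, and each symbol matched 1 gene among 13945 protein-coding genes on the 6 chromosome arms. Binding of GFP-tagged Dif was read from peak lists of chromatin immunoprecipitation followed by sequencing (ChIP-seq) with an anti-GFP antibody. There was 1 group, whole wandering larvae (the third instar) of both sexes, from the strain Dif-GFP, a stable transgenic line that makes Dif with GFP at its C terminus. It had 2 biological replicates, numbered 3 and 4, and larvae without the transgene were not analysed here. Replicate 3 was labelled with a size range of 200 to 275 and replicate 4 with 200 to 300. The labels do not name the promoter of the transgene and give no infection or other treatment. In whole larvae, strong binding in few cells and weak binding in many cannot be told apart.

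Dif is a nuclear factor κB (NF-κB) protein that works in the Toll branch of fly immunity. The JNK pathway answers wounding, infection and cell damage, and it drives tissue closure, repair and cell death. Eiger, the tumour necrosis factor of flies, binds the receptors Grindelwald and Wengen, and kinases such as Misshapen and Ask1 pass the signal to Hemipterous and on to Basket, the JNK itself. Basket phosphorylates Kayak and Jun-related antigen, the Fos and Jun proteins that pair as the transcription factor AP-1, and AP-1 turns on puckered, whose phosphatase switches Basket off again.

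A gene's window was its body and 5 kb on each side, in dm6 coordinates with Ensembl genes, and a peak was placed by its summit. The main list held the 4175 peaks that passed the authors' threshold on the irreproducible discovery rate (IDR), which asks whether replicates rank the same peaks. The relaxed lists, of replicate 3, replicate 4 and both pooled, held 30000 peaks and background regions each. Signal is the authors' own value per peak on a scale that the sources used here do not give. It ran from 83.9 to 4992 in the IDR list, from 19.7 to 3827 in replicate 3 and from 6.63 to 1242 in replicate 4, so replicates are compared by rank (1 is the strongest). The files give no read counts and the depth of the libraries is unknown.

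Tagged Dif had most summits at the AP-1 gene kay and the phosphatase gene puc, and its lowest top signals in the pooled list at the kinase genes hep and bsk. Of the 10 windows, 7 held 22 IDR summits in all, where 38.4% of all protein-coding genes had one. Both kay and puc held 6, Ask1 and Jra 3, msn 2, and egr and grnd 1 each, whereas wgn, hep and bsk held none. A summit lay inside the gene body at msn, kay and puc, 3 of the 10, against 12.1% of all genes. With egr added, 4 of the 10 had one at most 500 bp from a transcription start site (TSS) of their own, against 15.3%. Those 4 were also the genes whose own TSS was the nearest protein-coding one to a summit, against 16.9%. Most windows overlapped those of neighbours, so summits were also counted for CG1371 (with egr), CG10283 and kon (grnd), Spn, RpL8 and dos (msn), and fig (kay). Others were shared with Arc42, CG17186, Mrp5, CG4733 and ninaE (Ask1), with 14-3-3zeta, CG2269 and RpLP0-like (Jra), and with CG7900 and CG7878 (puc). The signal of every one of the 22 summits is plotted by gene.

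**Figure D1:**
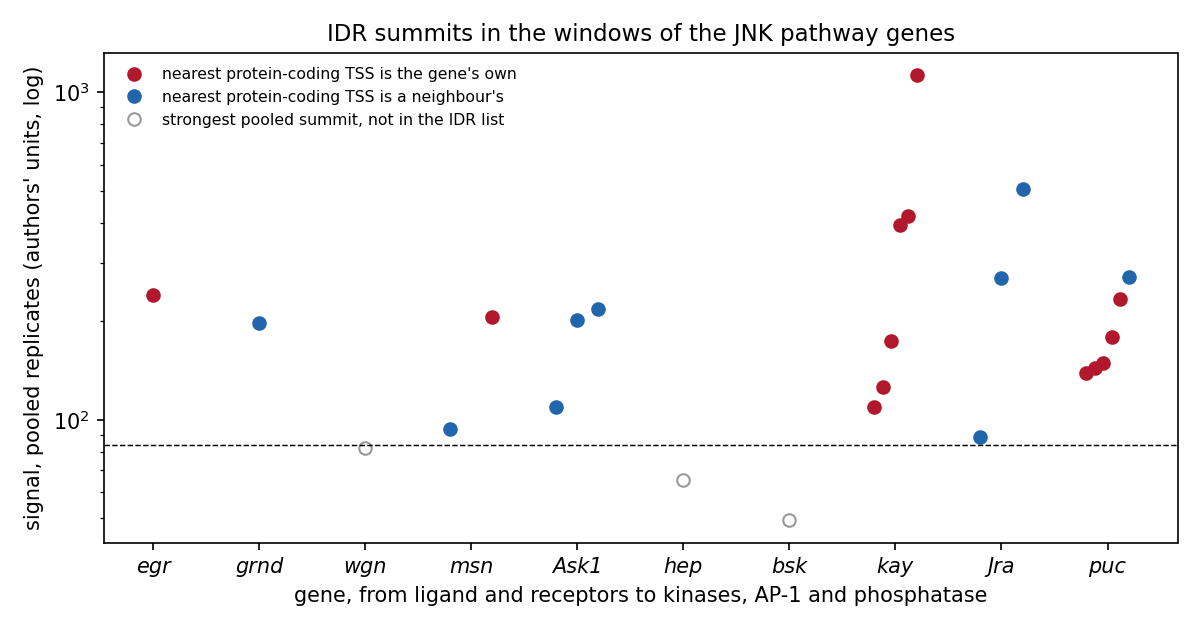
Each point is an IDR summit (n = 22) in the window of a JNK pathway gene, at its signal in the pooled data (authors' units, log axis), red where the nearest protein-coding TSS is the gene's own and blue where it is a neighbour's. Open grey points are the strongest pooled summits of wgn, hep and bsk, below the lowest signal of the IDR list at 83.9 (dashed line), and the kay summit at 1127 stands above the rest.

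Longer windows held a summit more often. The windows of the 10 genes had a median of 18589.5 bp, against 12166 bp over all protein-coding genes. Among windows over 25 and up to 50 kb, 65.5% of 898 genes had an IDR summit, as did msn, kay and puc, the 3 of the 10 genes in that range. From 15 to 25 kb the share was 53.5% of 2123 genes, and 2 of 4 pathway genes had one (egr and Ask1, not wgn or hep). Up to 15 kb it was 31.8% of 10463 genes, and 2 of 3 had one (grnd and Jra, not bsk). As many summits as at kay and puc, 6 or more, were found at 135 genes, or 0.968%, and among windows of 25 to 50 kb at 4.9%. Per 10 kb of window, Jra had 2.48 summits, puc 2.23, Ask1 1.84 and kay 1.57. In that order, 2.27%, 2.9%, 4.48% and 7.87% of all protein-coding genes were as dense or denser. Every summit in the windows of Jra and Ask1 was nearest to the TSS of another gene. The plot of summits against window length shows kay and puc on the same level at different lengths.

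**Figure D2:**
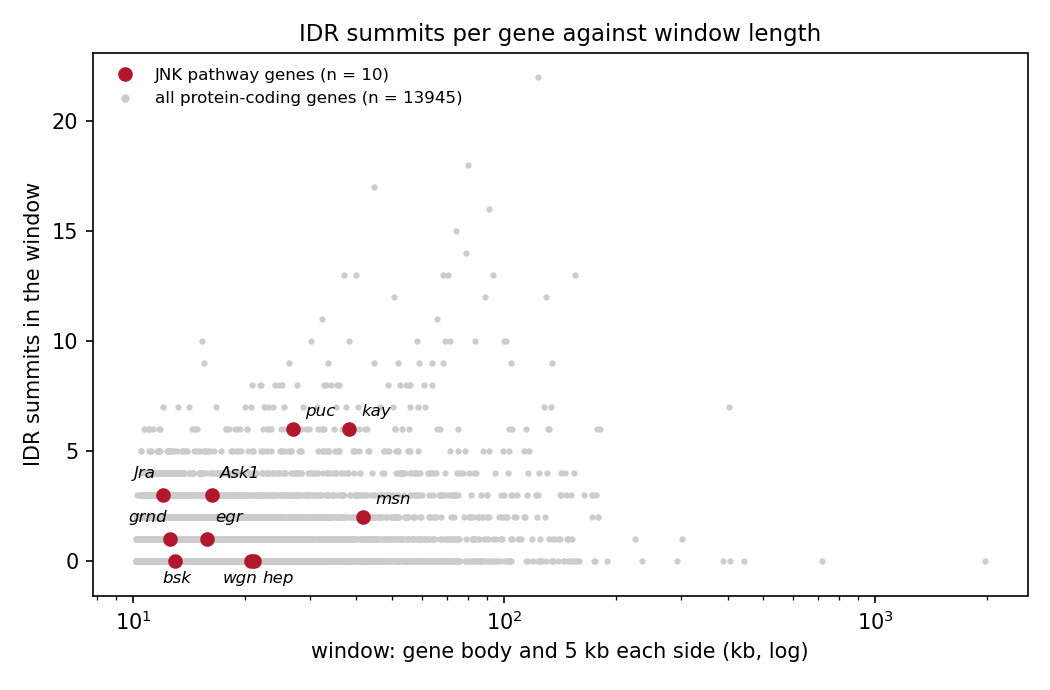
IDR summits per gene (vertical axis) against the length of its window in kb (log horizontal axis), with the 10 JNK pathway genes in red and all 13945 protein-coding genes in grey. The genes kay and puc sit at 6 summits with windows of 38119 and 26963 bp, and wgn, hep and bsk lie at 0.

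The ligand gene egr (FBgn0033483, arm 2R, 10078366 to 10084210, + strand) carried a single IDR summit, 30 bp before its only annotated TSS. The peak spans 10078214 to 10078457 and its signal was 240.1, rank 779 of the IDR list. Its signal was 160.1 in replicate 3 (rank 1014) and 98.6 in replicate 4 (rank 404). The next IDR summit from this promoter along the arm belonged to the window of Jra, 21330 bp away. No other summit of the egr window reached q = 0.01 in the pooled list.

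The receptor genes grnd and wgn differed from egr in that neither had an IDR summit at its own promoter. In the window of grnd (FBgn0032682, 2L, 18485417 to 18488021, + strand) the IDR summit lay in the 5′ UTR of the upstream neighbour CG10283, 5 bp from the TSS of that gene and 974 bp from that of grnd. It had a signal of 197, ranked 1098, with rank 1184 in replicate 3 and 1265 in replicate 4. Replicate 4 placed a further summit in the intergenic stretch at 18485285, 132 bp before the grnd TSS, with a signal of 37.3 and rank 2648. Replicate 3 had none within 100 bp of it. At wgn (FBgn0030941, X, 18624042 to 18634908, − strand) the strongest pooled summit fell just short of the IDR list. It lay in the 5′ UTR, 25 bp from the TSS, with a signal of 81.7 against the lowest IDR signal of 83.9. Both replicates held it, with signals of 66.8 (rank 3999) and 35.8 (rank 2818) in replicates 3 and 4, so each replicate's own 4175 strongest regions included it. A second pooled summit, 553 bp before the TSS, had a signal of 59.1 and appeared in both replicates at ranks 6261 and 11062.

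Among the upstream kinases, msn had a peak of its own and Ask1 did not. The gene msn (FBgn0010909, 3L, 2554847 to 2586540, − strand), which encodes a Ste20-type kinase, had an intronic summit 248 bp from a TSS, in the peak at 2585957 to 2586067. Its signal was 206, rank 1011, with 174 in replicate 3 (rank 885) and 57.3 in replicate 4 (rank 1249). The other summit in the window lay 1433 bp past the end of msn in an intron of Spn, with a signal of 93.4 and rank 3209 in replicate 3. Replicate 4 had no summit within 100 bp of it. The window of msn was the longest of the 10, at 41694 bp, and held 21 pooled summits, 6 of them at q of at most 0.01.

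All 3 summits in the window of Ask1 (FBgn0014006, 3R, 19879719 to 19886030, + strand), a kinase that activates JNK kinases, were nearest to the TSSs of other genes. One lay 4399 bp before Ask1 in an intron of Mrp5, 96 bp from the Mrp5 TSS, with a signal of 201. A pair lay 4064 and 4726 bp past the gene end, at 595 and 67 bp from the TSS of CG4733, with signals of 217 and 109.7. Each was found in both replicates, the last at ranks 1851 and 4282 in replicates 3 and 4. With flanks of 2 kb in place of 5 kb, Ask1 had none.

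The kinase genes hep and bsk, the JNK kinase and JNK, had the lowest top signals of the 10 in the pooled list. At hep (FBgn0010303, X, 13079205 to 13090434, − strand) the strongest pooled summit lay in an intron 2753 bp from the TSS, with a signal of 65.6 and −log10 q of 2.85. Replicate 3 held it at 68.4, rank 3872, and replicate 4 had no summit within 100 bp. At bsk (FBgn0000229, 2L, 10247502 to 10250501, − strand) 12 pooled summits were listed and none reached q = 0.01. The strongest, 49.3, lay in the 5′ UTR of the neighbour chico. None of the 7 replicate 3 summits at hep, nor of the 8 at bsk, had a replicate 4 summit within 100 bp. The maps of pooled summits show how these 8 windows differ.

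**Figure D3:**
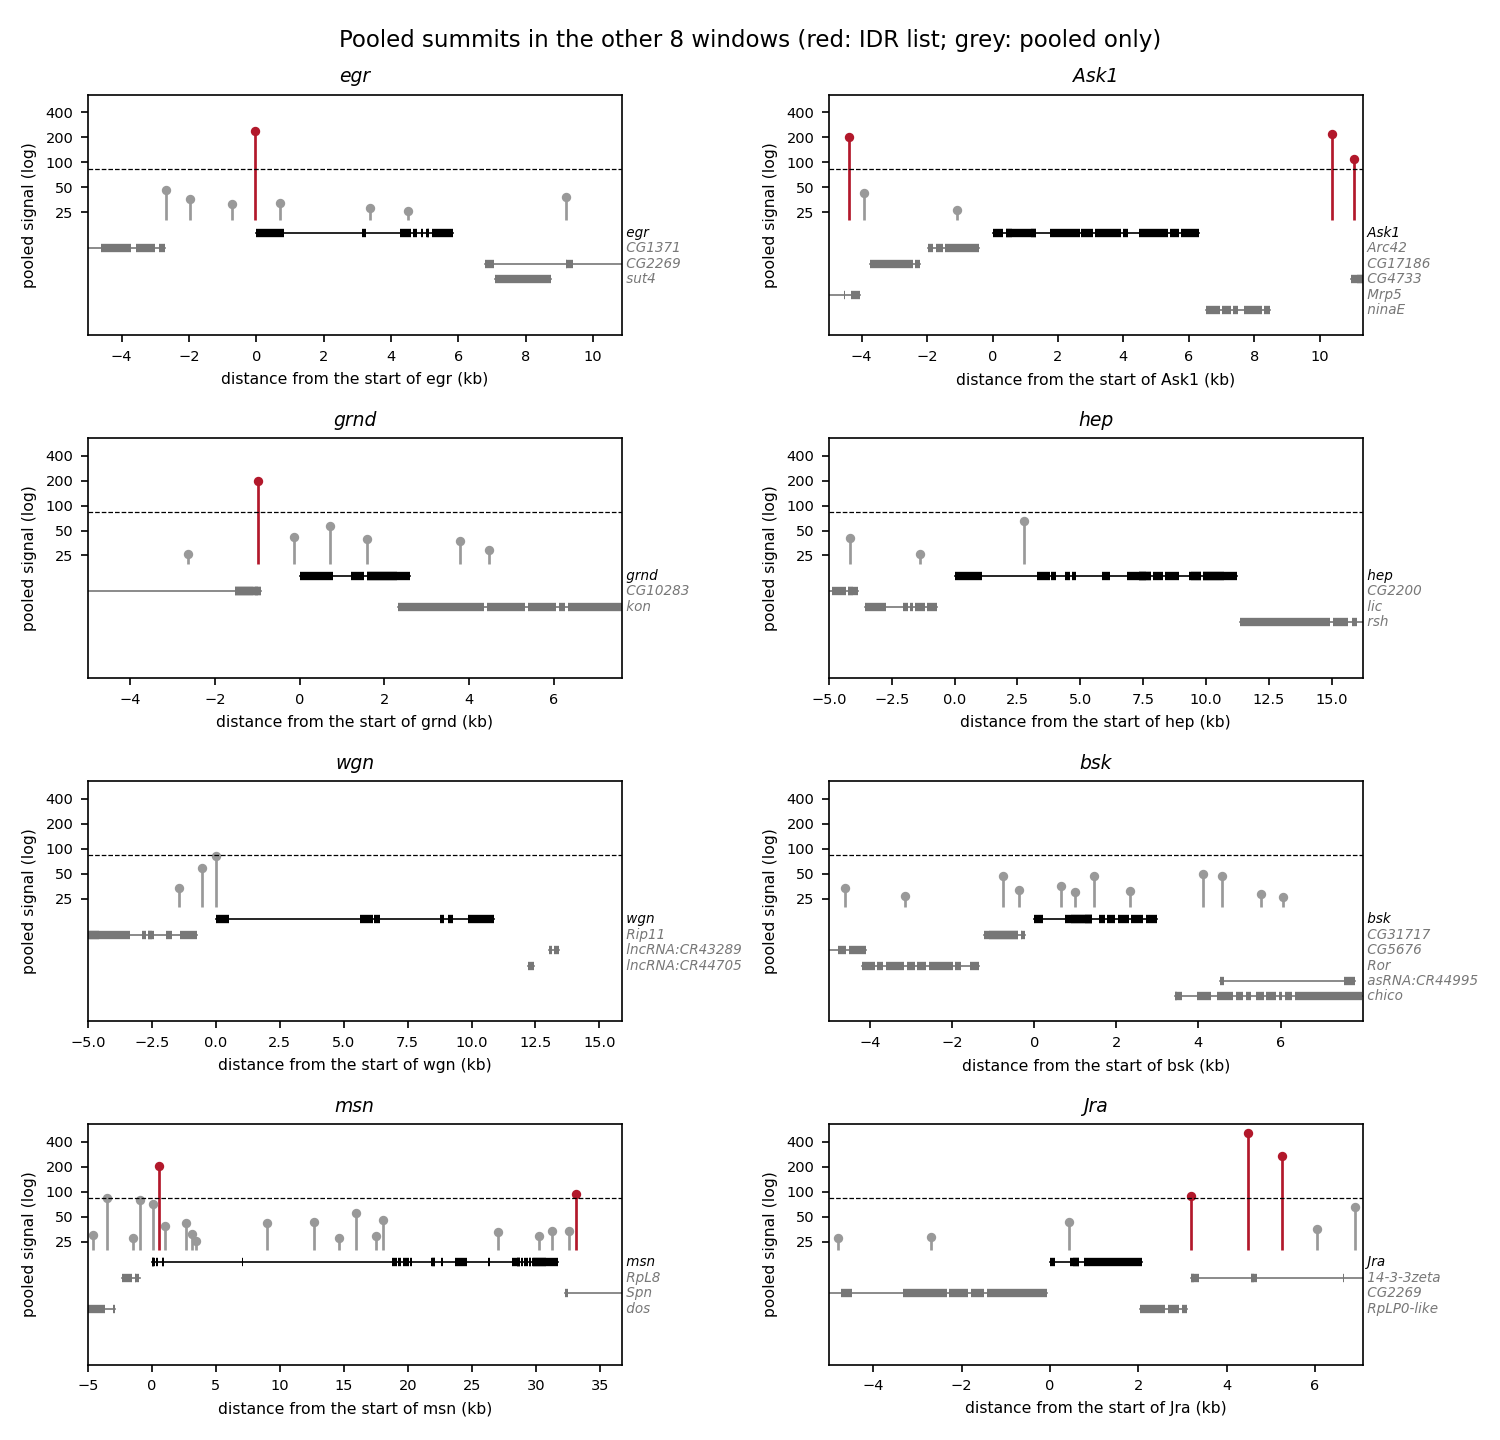
Pooled summits (vertical axis: signal, log scale, authors' units) against distance from each gene's start in kb, transcribed direction to the right, for egr, grnd, wgn, msn, Ask1, hep, bsk and Jra, with exons of the gene in black and of neighbours in grey. Red summits are in the IDR list, grey ones are not, and the dashed line is the lowest IDR signal of 83.9; the red summits of Ask1, Jra and grnd stand at neighbouring genes, and those of egr and 1 of msn at their own starts.

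The gene kay (FBgn0001297, 3R, 29765995 to 29794113, + strand), the Fos gene of the fly, carried the strongest summit of the 10 genes. Its main summit, in the peak at 29774512 to 29774742, ranked 19 among the 4175 IDR peaks with a signal of 1127. The signal was 898 in replicate 3 and 265 in replicate 4, ranks 19 and 26, so both replicates put it among their strongest 30 of 30000 regions. The summit lies 8644 bp into kay, between kay exons, where the annotation places an exon of the noncoding RNA lncRNA:CR46110. It is 412 bp from the TSS of that RNA and 1747 bp from the nearest kay TSS. The other 5 kay summits were weaker, with signals from 109 to 418.

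Of the 4 annotated TSSs of kay, 3 had an IDR summit close by. At the first, the summit 5 bp inside the 5′ UTR had a signal of 109 and ranked 5287 in replicate 3 and 2863 in replicate 4. At the second, the intronic summit 16 bp from the TSS had a signal of 418 and ranked 229 and 1179 in replicates 3 and 4. At the next, a summit 93 bp away had a signal of 174 and ranked 2054 and 1137. The remaining pair lay 770 bp before the second TSS, with a signal of 394 and ranks of 219 and 311, and 1467 bp before the gene, with a signal of 126. That upstream summit was the least even, at rank 2196 in replicate 3 and 12370 in replicate 4. No other protein-coding gene had its TSS nearer to any of the 6.

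The kay sites are shown in sequence because they include the longest GA repeats among the 22 summits. Each line is the 201 bases centred on a summit, from the RefSeq copy of the Release 6 genome (dm6), with no UTR or coding base in it, and capitals mark GAGAGAG, the motif of GAGA factor, on either strand, or the E-box CACGTG.
kay upstream, chr3R:29764428-29764628, + strand: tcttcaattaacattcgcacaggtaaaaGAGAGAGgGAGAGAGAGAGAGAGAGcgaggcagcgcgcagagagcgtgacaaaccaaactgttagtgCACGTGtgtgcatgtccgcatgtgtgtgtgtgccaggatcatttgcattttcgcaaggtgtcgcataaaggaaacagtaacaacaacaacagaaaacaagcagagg
kay intron before the second TSS, chr3R:29772022-29772222, + strand: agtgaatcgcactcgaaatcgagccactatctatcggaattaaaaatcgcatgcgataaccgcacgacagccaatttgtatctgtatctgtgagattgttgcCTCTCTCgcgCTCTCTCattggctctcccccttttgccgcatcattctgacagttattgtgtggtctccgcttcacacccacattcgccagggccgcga
kay strongest summit, chr3R:29774539-29774739, + strand: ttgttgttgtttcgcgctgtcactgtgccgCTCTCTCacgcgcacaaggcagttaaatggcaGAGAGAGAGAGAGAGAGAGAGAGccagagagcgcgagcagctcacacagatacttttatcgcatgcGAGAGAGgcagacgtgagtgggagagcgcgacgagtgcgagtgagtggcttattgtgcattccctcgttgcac

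The strongest kay summit had 11 GAGAGAG matches, most of them overlapping in 1 unbroken GA repeat of 24 bases. A repeat at least that long was present within 100 bp of 35 IDR summits, or 0.838%. The upstream site held 7 matches and a repeat of 17 bases, followed by a CACGTG whose last base is the summit. Both weaker TSS summits, the first and the one with a signal of 174, had no GAGAGAG within 100 bp.

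The Jun gene Jra (FBgn0001291, 2R, 10096480 to 10098556, + strand) had 3 summits in its window, all past the gene end and all nearest to the TSSs of 14-3-3zeta. That neighbour encodes a protein that binds phosphorylated partners in several signalling pathways. The strongest lay 2407 bp past Jra in an intron of 14-3-3zeta, 73 bp from a TSS, in the peak at 10100855 to 10101023. Its signal was 506, rank 163, and it ranked 190 in replicate 3 and 91 in replicate 4. The others had signals of 271 and 88.4, the second of them the weakest of the 22. Jra itself, 2077 bp long with 2 annotated TSSs, had no IDR summit in its body or within 1 kb.

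The gene puc (FBgn0243512, 3R, 8105332 to 8122294, + strand), which encodes the phosphatase that inactivates Basket, had all its 6 summits inside the gene body. They were of middling strength, with signals from 139 to 273 and ranks from 629 to 1981. A tight group of 4 covered the 2 annotated TSSs, at 46, 567, 914 and 1288 bp from the gene start, in 5′ UTR, coding sequence, intron and 5′ UTR. Their signals were 234, 139, 149 and 179. In replicate 3 they ranked 677, 1175, 1422 and 2193, and in replicate 4 those at 46, 914 and 1288 bp ranked 2085, 6003 and 1143, while the one at 567 bp had no summit within 100 bp. The other pair lay far inside the gene, in introns 8904 and 14708 bp from the start, with signals of 144 and 273. The summit at 8904 bp was 233 bp from the TSS of the noncoding RNA lncRNA:CR44331, against 7748 bp from a puc TSS. It ranked 2143 in replicate 3 and 1176 in replicate 4, and the last, the strongest of the gene, ranked 474 and 1776. Its summit, in the peak at 8119992 to 8120105, is closer to the start of CG7878, at 2685 bp, than to a puc TSS. Of the 22 summits, 10 had another IDR summit within 1000 bp, against 31.1% of all IDR summits.

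Sequence is given for the 3 puc summits whose windows hold no UTR or coding base, because, among the 22 IDR summits, an AP-1 match within 100 bp was found at puc alone. Each line is the same length as those of kay, centred on the summit (RefSeq, dm6), and capitals mark GAGAGAG or the AP-1 motif TGANTCA, where N is any base, on either strand.
puc intron near the second TSS, chr3R:8106146-8106346, + strand: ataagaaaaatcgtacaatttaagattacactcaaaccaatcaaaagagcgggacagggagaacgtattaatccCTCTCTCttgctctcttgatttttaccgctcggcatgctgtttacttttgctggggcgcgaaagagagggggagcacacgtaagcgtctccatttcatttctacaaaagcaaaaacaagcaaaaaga
puc mid intron, chr3R:8114136-8114336, + strand: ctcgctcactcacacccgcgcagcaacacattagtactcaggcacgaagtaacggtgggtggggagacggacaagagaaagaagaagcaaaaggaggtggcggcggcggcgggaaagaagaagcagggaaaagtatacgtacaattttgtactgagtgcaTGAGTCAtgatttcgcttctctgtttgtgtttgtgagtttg
puc distal intron, chr3R:8119940-8120140, + strand: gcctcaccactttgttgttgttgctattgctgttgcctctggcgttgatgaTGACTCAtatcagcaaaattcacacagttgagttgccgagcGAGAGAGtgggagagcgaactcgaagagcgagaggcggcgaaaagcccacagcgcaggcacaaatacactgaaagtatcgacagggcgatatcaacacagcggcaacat

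At the mid-intron summit the letters TGAGTCA began 60 bases after the summit, and at the distal one TGACTCA began 49 bases before it. A further match began 92 bases after the summit that lies in coding sequence, outside that peak, which spans 8105879 to 8105939. The distal match straddled the start of its peak, and the mid-intron match lay inside its own. Thus 3 of the 6 puc summits had an AP-1 match within 100 bp, while 149 of all 4175 IDR summits did (3.57%). Among 342 protein-coding genes with any such summit, 3 had 3, namely puc, Xrp1, which had 8 IDR summits, and Tlk, which had 18. The DNA at puc is rich in these letters away from summits too. The whole puc window held 20 matches, or 7.42 per 10 kb, against a median of 1.88 over all protein-coding genes and 2.16 over those with windows of 25 to 50 kb. Over all genes, 0.33% had as many per length. The window of grnd was also dense, with 8 matches or 6.35 per 10 kb, and kay had 3.41 and Jra 2.48. These matches are letters in the sequence, and whether AP-1 binds them in larvae was not measured.

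**Figure D4:**
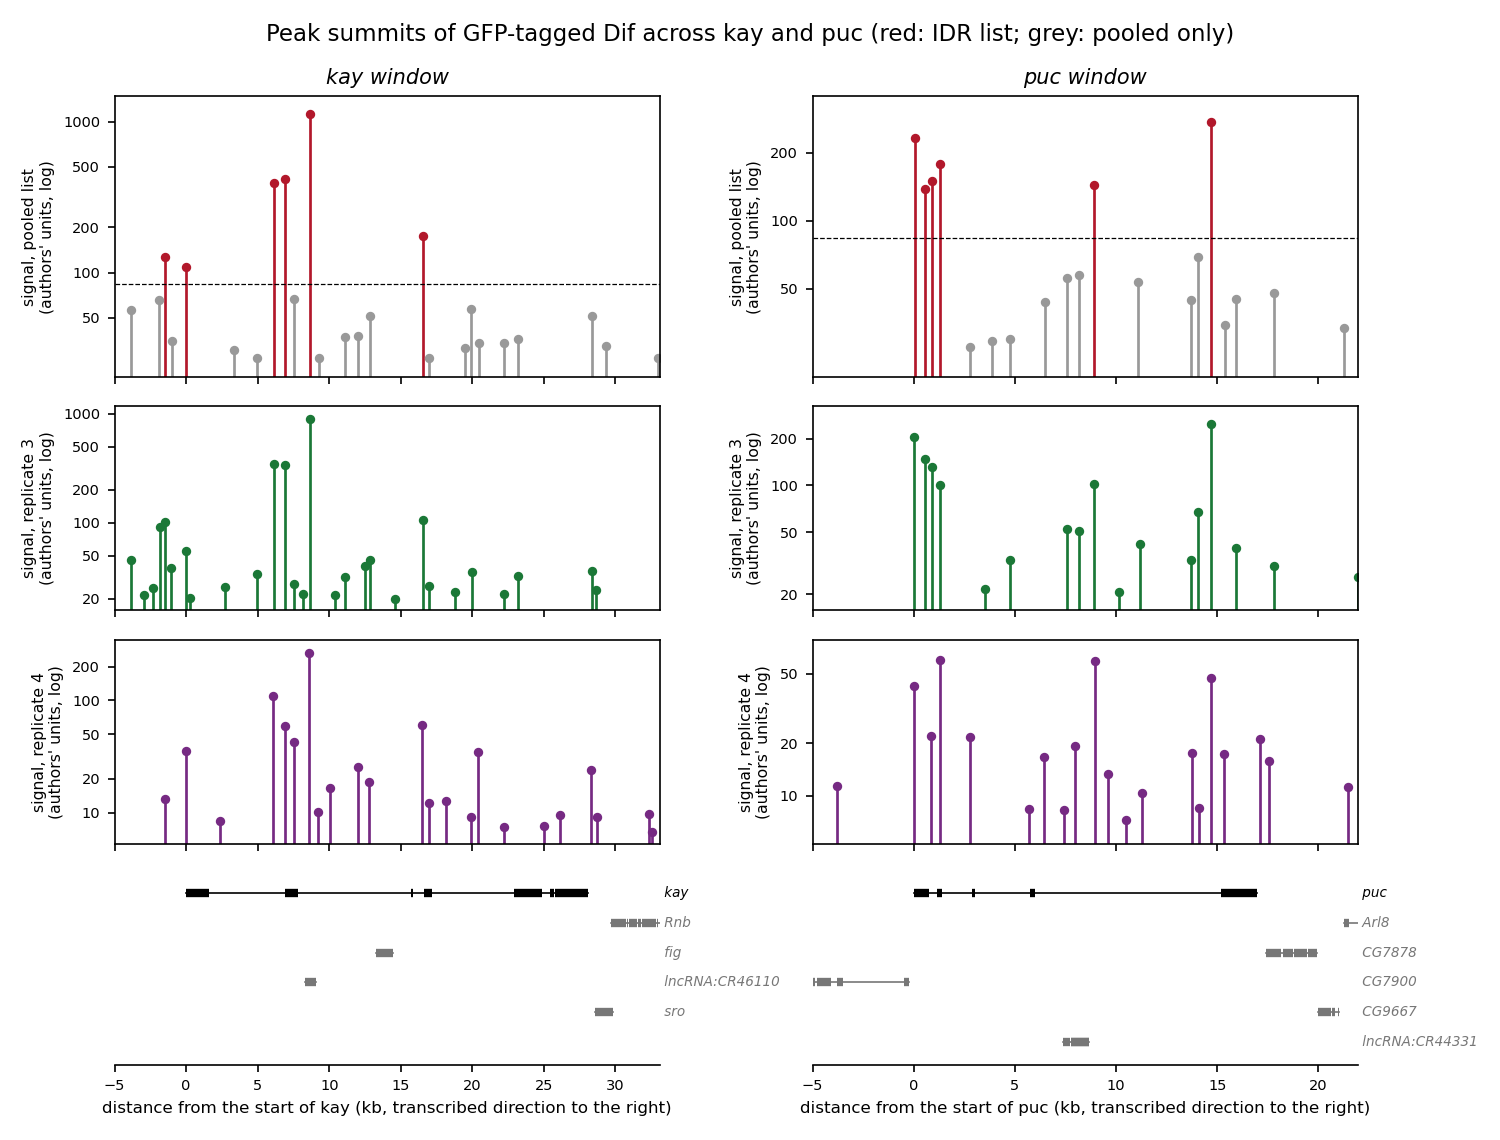
Summits across the windows of kay (left) and puc (right), by distance in kb from the start of the gene, with signal on log axes in the authors' units for the pooled list, replicate 3 and replicate 4, and exons below (the gene in black, others in grey). Red pooled summits are in the IDR list and the dashed line is its lowest signal, 83.9; the kay summit at 8644 bp is the tallest in all 3 lists, and the group of 4 at the start of puc is 3 in replicate 4.

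Over all 22 summits, GAGAGAG was present within 100 bp of 12 (54.5%), in the windows of msn, Ask1, kay, Jra and puc, while 34.6% of all IDR summits had it. Those in the windows of Ask1 and Jra, the one in Spn and the distal puc one were nearest to a neighbour's TSS. One κB consensus, GGGRNNYYCC (R is A or G, Y is C or T), is a form of the letters that NF-κB proteins recognise. It matched at 0 of the 22 and at 1.25% of all. That count would allow a share of up to 13.6% if the 22 were independent, but many of them share a window. The nearest match to a summit of the 10 genes began 134 bases from the kay summit with a signal of 394. DRE, written TATCGATA, also matched at 0, against 1.63% of all. CAGCTG matched at 1, an Ask1 window summit near CG4733, against 13.6%, and CACGTG at 2, near egr and upstream of kay, against 3.47%. GC content within 100 bp of the summit had a median of 50.2% at the 22 summits and of 49.8% at all. By gene part, 11 summits lay in introns, 5 in 5′ UTRs, 4 in intergenic sequence, 1 in coding sequence and 1 in a noncoding exon. Introns held 43.7% of all IDR summits and 5′ UTRs 21%. The median signal of the 22 was 199, against 134 over the list.

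Most of these sites were seen in each replicate. Replicate 3 had a summit within 100 bp of all 22 and replicate 4 of 20, so 20 (90.9%) were in both, as were 85.4% of all IDR summits (Wilson interval 84.3% to 86.4%, counting error only). Among the 4175 strongest regions of each replicate, 15 of the 22 were in both, as were 2273 of all 4175 IDR summits. Ranks of the 20 had a Spearman rho of 0.58 between replicates, and those of 3565 IDR summits in both had 0.48. The IDR list was made from these same replicates, so finding its summits in both is no independent check. Sites of 1 gene also share their DNA preparations, so these values are descriptions. Of the 20, 12 (60.0%) ranked nearer the top in replicate 3, close to the 57.3% of the 3565. The plot of ranks shows 5 puc summits on both sides of the diagonal.

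**Figure D5:**
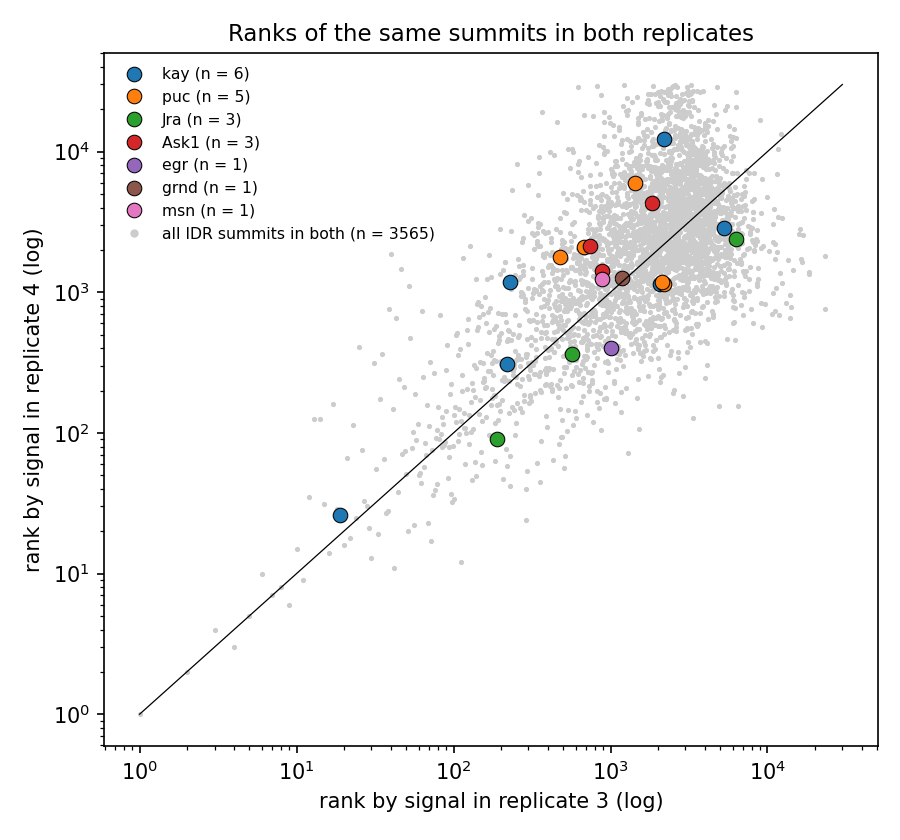
Rank by signal in replicate 4 against rank in replicate 3 (log axes, 1 is the strongest) for 20 IDR summits of the JNK pathway genes, coloured by gene, and for all 3565 IDR summits found in both replicates (grey). The strongest kay summit lies at ranks 19 and 26, and points above the diagonal ranked higher in replicate 3.

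Relaxed lists held regions at every one of the 10 genes, as they did for most genes. A pooled summit was present in the windows of 86.8% of all protein-coding genes, a replicate 3 summit in 87.3% and a replicate 4 summit in 88.3%. A pooled summit at q of at most 0.01 was present at 9 of the 10, all but bsk, against 57.9%. There were 10 such summits at kay and at puc, 6 at msn, 4 at Jra, 3 at Ask1, 2 at grnd and wgn, and 1 at egr and hep. Of 28 replicate 3 summits at kay, 13 had a replicate 4 summit within 100 bp. At puc it was 8 of 17, at msn 5 of 22, at Jra 5 of 7, at Ask1 4 of 6, at egr and wgn 2 of 7 and 2 of 5, and at grnd 1 of 7. Such a share over all replicate 3 regions was not worked out, so these matches cannot be set against other genes.

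Further genes of the pathway also carried IDR summits in their windows. Of 20 genes upstream of or beside the kinases, 17 had one, against 38.4% of all protein-coding genes, and 10 had one within 500 bp of a TSS, against 15.3%. Traf6, an adaptor, slpr, a mixed-lineage kinase upstream of hep, and Mkk4, the second JNK kinase of flies, had none. Of 15 genes known to respond to JNK or AP-1 signalling, 13 had one and 9 had one within 500 bp of a TSS, beside the same shares of 38.4% and 15.3% over all genes. The exceptions were scaf and Gadd45, and Gadd45 had no pooled summit either. The median window was 15791 bp in the upstream list and 18904 bp in the downstream one. The strongest signal was at Zasp52, a muscle and adhesion protein gene, at 1002 in an intron (rank 28, and ranks 28 and 30 in replicates 3 and 4). The GTPase gene Rho1 followed at 685 in an intron. The window of upd1, a cytokine gene, held a summit of 545 nearest to CG6023, and that of Cdc42, a GTPase gene, held one of 529 nearest to Tcs4. The profilin gene chic had 6 summits in its window, as kay and puc did, but only 3 were nearest to its own TSS. Its strongest was at 475 in its 5′ UTR. Pvf1, a growth factor gene, had 1 at 459. Mekk1, a kinase gene of the upstream list, had 4, and upd3, a cytokine gene induced by wounding, had 3, each of them nearest to its own TSS.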

How the data were processed

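ChIP-seq peak lists from 2 replicates of 1 group were used in the dm6 build. The authors deposited a list past the IDR threshold and relaxed lists of peaks with background regions for replicate 3, replicate 4 and both pooled, per the file headers. The labels name a possible control, which was not used here. All 4175 IDR peaks were the strongest pooled peaks by signal. The deposited signal is the authors' value per peak, and the deposited −log10 q value follows the narrowPeak layout. Names of the aligner and peak caller were not given in the sources used here. Lists in the dm3 build were not used.

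Gene models were those of Ensembl release 115. Sequence was read from the RefSeq Release 6 genome, in which 99.9% of 16213 annotated start codons read ATG. Summits were assigned to every gene whose body or 5 kb flank held them, and matched between lists at 100 bp. Motifs were searched on both strands within 100 bp. The κB consensus was GGGRNNYYCC alone, and κB sites written with other letters were not searched. Matches of GAGAGAG may overlap each other. Placing, matching and motif search were tested on simulated data. Python 3.11.15, NumPy 2.4.6, pandas 2.3.3 and SciPy 1.17.1 were used.

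All 10 genes were described with every IDR summit, and for those without one the strongest summits of the relaxed lists. Of the further pathway genes, the 6 of strongest signal and those with no pooled summit were to be named, and the others named were chosen after their values were seen. The genes and lists were chosen with earlier results of these data known, so counts stand beside the same counts over all protein-coding genes and no test was made over the 10 genes.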

Additional observations from a re-analysis of the deposited data

How the results depend on the processing

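The files hold no read counts, so depth cannot be used to weigh a missing summit, and all counts rest on 2 replicates of 1 group with no larvae lacking the tag. The number of the 10 genes with an IDR summit was 7, and it was 3 in gene bodies alone and 4 under both the nearest-TSS rule and the 500 bp rule. The 22 summits became 12 in gene bodies, 14 within 1 kb, 13 under the nearest-TSS rule and 8 within 500 bp of a TSS, as fewer positions then counted, while 10 kb flanks added none. With the IDR list restricted to its peaks above the median signal 7 genes (against 22.5% of all protein-coding genes) and 17 summits were left. With the strongest regions of replicate 3 alone there were 9 genes (against 38.7% of all), wgn and hep among them, and 25 summits. With replicate 4 alone there were 8 genes (against 38.4% of all), wgn among them, and 23 summits. Summits in both replicates ranged from 15 to 20 under 4 alternatives. The AP-1 motif was at 1 summit within 50 bp (against 1.68% of all IDR summits) and at 5 within 250 bp (10.1%). For CACGTG these counts were 1 (1.65% of all) and 6 (6.92%). Within 250 bp CAGCTG was at 4 (25.4% of all) and the κB consensus at 1 (3.23%). GAGAGAG was at 10 within 50 bp (against 28.6% of all IDR summits) and at 15 within 250 bp (40.2%). No paired analysis was possible because there was 1 group.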

Other observations

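Several sites at the 10 genes were strong in a single replicate and are missing from the IDR list. In replicate 3 alone, the intergenic summit at 29764177 upstream of kay ranked 2571 with a signal of 90.8, and the intronic hep summit ranked 3872, and neither had a replicate 4 summit within 100 bp. In replicate 4, a summit in a kay 5′ UTR at 29773526 ranked 2141 with a signal of 42.2, against rank 17213 in replicate 3, and one in a kay intron at 29786414 ranked 2919 with none in replicate 3. In intergenic sequence before msn, the replicate 4 summit at 2587437 ranked 2502, against 5351 in replicate 3, with a pooled signal of 80.5. A summit at 2583791 in a msn intron ranked 3159 in replicate 4 and had neither a pooled nor a replicate 3 summit within 100 bp.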
